A study of Homo sapiens with 13 samples.

Results

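The loci described here are the DNA-RNA hybrid peaks of control U2OS cells that no peak of either knockdown overlapped. They were chosen from the deposited peak lists as siCtrl peaks on chromosomes 1 to 22 and X that shared not even 1 bp with a siREXO4 peak or a siRNaseH1 peak. They numbered 2041 of 4458 siCtrl loci, or 45.8% (95% Wilson interval 44.3 to 47.2%). Of the other siCtrl loci, 913 (20.5%) were kept in 1 knockdown, which was siREXO4 for 355 and siRNaseH1 for 558, and 1504 (33.7%) were kept in both.

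The series holds 13 samples of U2OS, a human osteosarcoma line, and asks whether REXO4 and RNaseH1 act on R-loops in the same regions. Cells received an siRNA against REXO4 (3 S9.6 IP libraries, 1 input), an siRNA against RNaseH1 (3 IP libraries, 1 input) or a control siRNA, siCtrl (3 IP libraries, 1 input, 1 mouse IgG). The assay was DRIP-seq, in which the S9.6 antibody pulls down DNA-RNA hybrids from genomic DNA sonicated to about 500 bp. Each transfection has 1 peak list, which the authors called after merging its IP libraries, so no value has a replicate error and no test between transfections was possible. All intervals given here cover counting error only, not the variation between cultures or between peak calls. Promoters and gene starts on chromosome 8 were not analysed here, so values on them rest on 1903 of the 2041 absent loci. Values on gene starts use only genes with a RefSeq promoter entry, 27195 of 59094, and gene ends come from the same set. Values on gene boundaries, defined below, use all 59094 genes.

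An R-loop is a DNA-RNA hybrid with the displaced DNA strand beside it. R-loops form as RNA is transcribed, and the best known sites are CpG-rich, G-rich promoters, the first part of genes and gene ends. RNaseH1 degrades the RNA strand of such hybrids, and REXO4 belongs to a family of exonucleases.

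The siREXO4 list held 12687 loci and the siRNaseH1 list 20954, so the absent loci were missing from lists that were both longer than the siCtrl list of 4458. Background coverage, the lowest expected number of fragments at a peak of the list, was 1.41 in siREXO4, 1.36 in siRNaseH1 and 1.28 in siCtrl. The lowest summit called in each list had 7 fragments, and the median summit had 14 in siREXO4, 16 in siRNaseH1 and 13 in siCtrl. Read depth is unknown. REXO4 itself (chromosome 9, 133406058 to 133418172) held 0 peaks in every list. RNASEH1 (chromosome 2, 3531813 to 3558333) held 1 siREXO4 peak, 3 siRNaseH1 peaks and 0 siCtrl peaks. Peaks do not measure transcripts, and these counts say nothing of knockdown efficiency. Coordinates are those of hg38.

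Absent loci were rare at promoters, and the few promoter sequences that carry one are given first. A promoter window runs from 250 bases before a RefSeq gene start to 50 after it. Of the 1903 absent loci, 2 overlapped a window, at DPF2 and at NHP2. DPF2 encodes a subunit of the BAF chromatin remodelling complex, and NHP2 encodes a core protein of the H/ACA ribonucleoproteins that guide pseudouridylation. Their 250 bases before the start are printed 5′ to 3′ on the gene's strand from RefSeq (GRCh38.p14). Below them stand 2 promoters whose siCtrl loci had the same number of summit fragments but were kept in both knockdowns. They were chosen after their values were seen, CHASERR from 3 candidates and CAMTA1 from 18, and are examples only. Their loci overlapped the windows by 258 bp at CHASERR and 300 bp at CAMTA1. Capitals mark runs of 4 or more G or 4 or more C.
DPF2, absent, chr11:65333602-65333851, plus strand: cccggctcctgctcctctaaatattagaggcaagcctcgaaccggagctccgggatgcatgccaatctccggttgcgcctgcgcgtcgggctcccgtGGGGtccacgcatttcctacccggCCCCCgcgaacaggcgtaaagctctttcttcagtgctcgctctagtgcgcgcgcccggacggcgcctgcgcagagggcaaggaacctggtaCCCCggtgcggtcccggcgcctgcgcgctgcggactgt
NHP2, absent, chr5:178153886-178154135, minus strand: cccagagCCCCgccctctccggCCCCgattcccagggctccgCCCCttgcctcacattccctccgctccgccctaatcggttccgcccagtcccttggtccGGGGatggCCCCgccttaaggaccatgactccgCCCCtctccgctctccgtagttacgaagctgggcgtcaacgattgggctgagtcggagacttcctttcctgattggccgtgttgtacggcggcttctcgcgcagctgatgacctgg
CHASERR, kept in both, chr15:92882593-92882842, plus strand: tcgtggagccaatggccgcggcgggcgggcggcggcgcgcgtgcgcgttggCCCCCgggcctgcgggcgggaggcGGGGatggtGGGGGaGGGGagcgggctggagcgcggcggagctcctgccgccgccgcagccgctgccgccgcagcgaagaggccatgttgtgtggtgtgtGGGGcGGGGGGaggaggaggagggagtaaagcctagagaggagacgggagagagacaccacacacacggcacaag
CAMTA1, kept in both, chr1:7704486-7704735, plus strand: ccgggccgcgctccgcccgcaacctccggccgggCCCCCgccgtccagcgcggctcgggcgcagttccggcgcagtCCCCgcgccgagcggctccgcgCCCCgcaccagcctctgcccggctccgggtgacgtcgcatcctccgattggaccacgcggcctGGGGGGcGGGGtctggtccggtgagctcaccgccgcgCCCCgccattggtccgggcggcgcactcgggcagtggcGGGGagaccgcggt

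The DPF2 locus (chromosome 11, 65333315 to 65333623) had a siCtrl fold enrichment of 4.19 from 10 fragments, with its summit at base -456 from the start. It reached 22 bp into the window. A siREXO4 peak with a fold of 6.10, from 65333746 to 65334220, began 122 bp away, over the start of the gene. The NHP2 locus (chromosome 5, 178153951 to 178154216) had a siCtrl fold of 3.71 from 13 fragments, with its summit at base -156 from the start and 185 bp of the locus inside the window. A siRNaseH1 peak with a fold of 4.36, from 178152946 to 178153828, lay 122 bp away, on the side of the gene body. At both promoters, then, a knockdown list held a peak close by that did not touch the siCtrl locus.

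The printed bases held 67.6% G or C at DPF2 and 65.6% at NHP2, against 74.8% at CHASERR and 80.4% at CAMTA1. DPF2 had 1 run of G and 2 of C, and NHP2 had 1 of G and 5 of C. CHASERR, a long noncoding RNA gene, had 5 runs of G and 1 of C, and CAMTA1, which encodes a calmodulin-binding transcription activator, had 3 of G and 4 of C. The motif searched was GGGG or CCCC, which covers both strands, and 89.7% of all 34961 promoter windows held it, so its presence sets none of these promoters apart. Over the whole 300-base windows, median G or C content was 66.3% for the 2 absent windows, 68.7% for the 423 windows with a locus kept in both and 58.7% for all windows. With 10 and 13 fragments in siCtrl, as at DPF2 and NHP2, CHASERR had folds of 18.6 in siREXO4, 14.6 in siRNaseH1 and 4.83 in siCtrl, and CAMTA1 had 15.7 in siREXO4, 26.5 in siRNaseH1 and 4.89 in siCtrl.

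The absent loci leaned towards the shallow end of the siCtrl list, with wide overlap between the classes. The fold enrichment, the authors' ratio of the summit over local background, had a median of 4.72 in absent loci, 4.83 in loci kept in 1 knockdown and 5.25 in loci kept in both. The highest fold was 7.94 in absent loci, 9.45 in loci kept in 1 and 155 in loci kept in both. Median −log10 q was 3.32 in absent loci, 4.02 in loci kept in 1 and 5.55 in loci kept in both. Absent loci were also narrow, with a median width of 300 bp, against 338 bp in loci kept in 1 and 429 bp in loci kept in both. The smallest width in the list, 266 bp, was that of 30.2% of absent loci, 19.4% of loci kept in 1 and 7.25% of loci kept in both. Fold, q and width come from the lists that chose the loci, so these values are a description.

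The number of fragments at each summit, worked out from the deposited fold and p-value, gives the same order in counts. Absent loci had a median of 11 fragments, with the middle 50% between 10 and 13, against medians of 13 in loci kept in 1 and 16 in loci kept in both. At most 12 fragments stood behind 68.3% of absent loci, 49.4% of loci kept in 1 and 21.5% of loci kept in both. At 11 fragments the exact 95% Poisson interval runs from 5.49 to 19.7, so a single typical absent locus has a wide counting error. Of all siCtrl loci, the share absent from both knockdowns was lower at each step of coverage. It was 73.9% at 7 to 9 fragments, 65.0% at 10 to 11, 51.6% at 12 to 13, 37.7% at 14 to 15, 21.3% at 16 to 19 and 5.77% at 20 or more. These shares cover the 4439 loci with a recovered number of fragments.

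**Figure D1:**
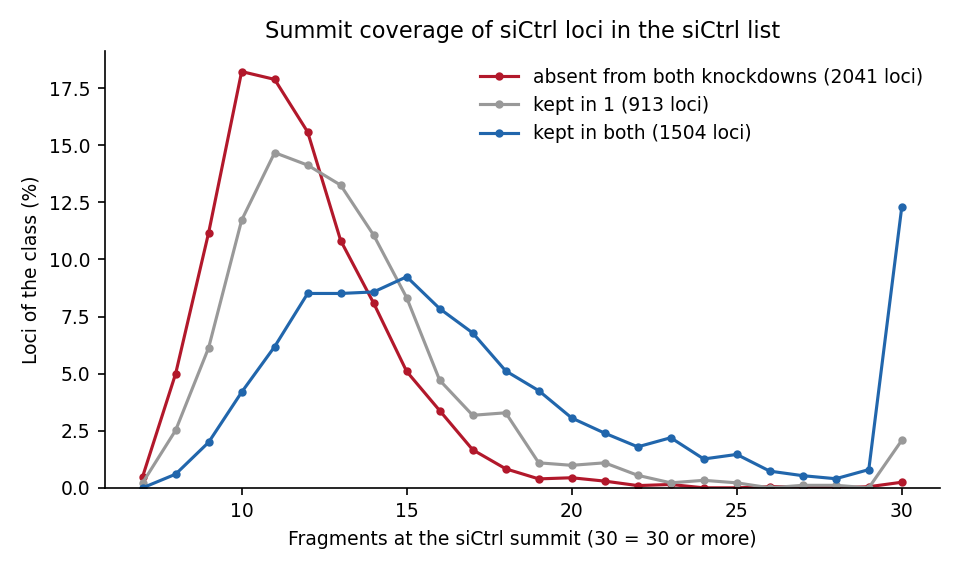
Percent of loci in each class (y) by the number of fragments at the siCtrl summit (x, with 30 standing for 30 or more), for siCtrl loci absent from both knockdowns (red), kept in 1 (grey) and kept in both (blue). Absent loci centre on 11 fragments and 92.4% of them have 15 or fewer, against 47.8% of loci kept in both. Loci kept in both without a recovered number count in the class size but are not drawn.

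Whether such coverage would have been called in the knockdowns was asked by scaling it to their backgrounds, by 1.10 for siREXO4 and 1.06 for siRNaseH1. The lowest coverage called in each knockdown list, 7 fragments, is also the lowest in the siCtrl list, so every siCtrl locus reaches it by construction. With the counting error included, the lower bound of the interval exceeded that limit for 646 absent loci (31.7%) in each knockdown. It did so for 462 loci kept in 1 (50.6%) and 1181 kept in both (78.5%). The limit takes no account of local background. That background was above the lowest of the list at 68.4% of absent loci and 73.2% of loci kept in 1. It was so at 89.3% of the 1485 loci kept in both with a recovered value. Against the 5th percentile of knockdown coverage, 9 fragments in siREXO4 and 10 in siRNaseH1, the lower bound was above the limit for 260 absent loci (12.7%) in siREXO4 and 87 (4.26%) in siRNaseH1. Against the median coverage of a knockdown peak, 31.7% of absent loci reached the siREXO4 median and 7.64% the siRNaseH1 median. At the lowest limit, then, 1395 absent loci, 68.3%, had a siCtrl coverage whose counting interval included the lowest coverage called in the knockdowns. For those loci, and for more at the higher limit, an absence from a knockdown list cannot be told apart at this depth from a small difference in counts around the call limit.

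By position, absent loci lay mostly inside genes and away from their boundaries. The summit was within 2 kb of the start or end of a gene, here called a boundary, for 13.6% of absent loci (12.2 to 15.1%), 20.4% of loci kept in 1 and 52.0% of loci kept in both (49.5 to 54.5%). It was inside a gene and farther from a boundary for 55.3% of absent loci, 54.2% of loci kept in 1 and 32.8% of loci kept in both. It was between genes for 31.2% of absent loci, 25.4% of loci kept in 1 and 15.2% of loci kept in both. Of the length of the chromosomes, 11.1% lies near a boundary, 47.9% inside genes and 41.0% between genes with assembly gaps included. The boundary share of absent loci was thus near that of the genome, and that of loci kept in both was well above it. Loci kept in siREXO4 only lay between genes in 40.0% and loci kept in siRNaseH1 only in 16.1%.

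Starts of genes with a promoter entry made up most of the difference at boundaries. Starts and ends of other genes are not counted in the values that follow. The summit lay within 2 kb of a start in 3.31% of absent loci and 32.0% of loci kept in both, and within 2 kb of a gene end only in 3.31% of absent loci and 9.18% of loci kept in both. The summit lay within 1 kb of a start in 20 of 1903 absent loci (1.05%, 0.681 to 1.62%), in 2.27% of loci kept in 1 and in 411 of 1449 loci kept in both (28.4%, 26.1 to 30.7%). Stretches within 1 kb of a start take up 1.94% of the chromosomes analysed. The absent locus with its summit closest to such a start was 0.156 kb away, and the median was 28.8 kb in absent loci and 8.69 kb in loci kept in both. To a boundary of any gene, the smallest distance of an absent locus was 0.005 kb. Promoter windows were overlapped by 0.105% of absent loci (0.0288 to 0.382%), 0.477% of loci kept in 1 and 20.8% of loci kept in both. The windows take up 0.329% of the bases of the chromosomes, for which the summit alone is the like measure. The summit lay in a window for 0.0525% of absent loci, 0.358% of loci kept in 1 and 5.31% of loci kept in both. Within 2 kb of a start, the summit was on the gene's side of it in 33 of 63 absent loci (52.4%, 40.3 to 64.2%) and in 350 of 464 loci kept in both (75.4%, 71.3 to 79.1%).

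**Figure D2:**
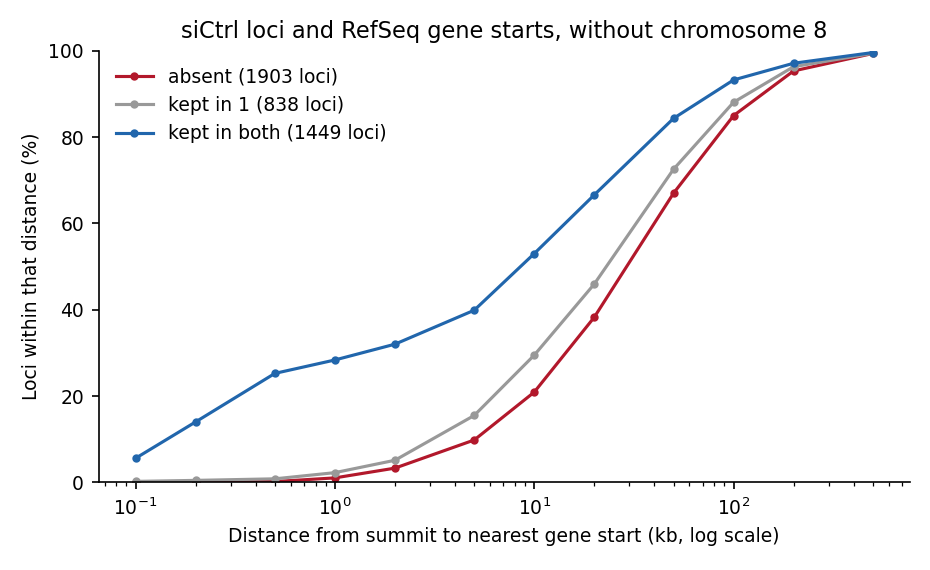
Cumulative percent of loci (y) whose summit lies within a given distance of the nearest RefSeq gene start with a promoter entry (x, kb, log scale), for siCtrl loci absent from both knockdowns, kept in 1 and kept in both, without chromosome 8. At 1 kb the absent loci stand at 1.05% and the loci kept in both at 28.4%.

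Position and coverage moved together, so each was read within the other. Among loci with 10 to 13 fragments, the boundary share was 13.3% in absent loci, 18.5% in loci kept in 1 and 38.6% in loci kept in both. A promoter window was overlapped by 2 of 1191 absent loci (0.168%) and 32 of 400 loci kept in both (8.00%, 5.72 to 11.1%) at that coverage. Read the other way, 11.1% of siCtrl loci within 2 kb of a gene start were absent (63 of 570), 24.5% of those within 2 kb of a gene end only (63 of 257), 54.1% of those farther inside genes and 57.7% of those between genes. Loci near a boundary, but not near a start or end of a gene with a promoter entry, are in none of these groups. At 16 to 19 fragments, 4.70% of loci near starts were absent (2.29 to 9.38%), 28.6% of those inside genes (22.8 to 35.1%) and 36.0% of those between genes (27.7 to 45.1%). Of siCtrl loci that overlapped a promoter window, 2 of 307 were absent (0.651%, 0.179 to 2.34%). The knockdown lists themselves were rich in promoters, with 3986 windows overlapped by a siREXO4 peak and 4113 by a siRNaseH1 peak, of 34961 in all.

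**Figure D3:**
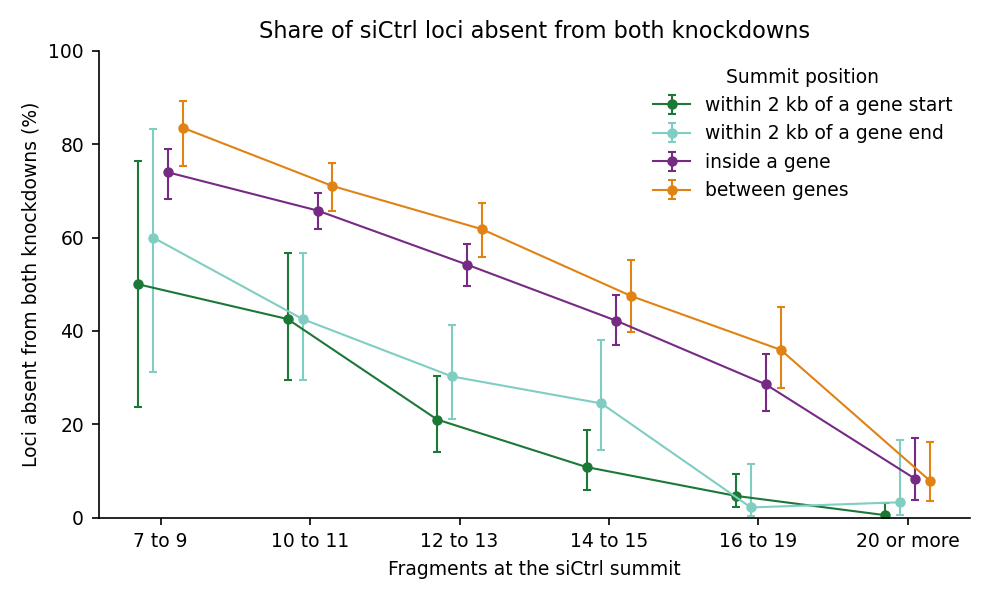
Percent of siCtrl loci absent from both knockdowns (y) by fragments at the siCtrl summit (x) and by position of the summit, with 95% Wilson intervals, without chromosome 8. Below 20 fragments, loci near gene starts lie under those inside genes and between genes at each coverage. Loci near a boundary, but not near a start or end of a gene with a promoter entry, are not shown.

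At protein-coding genes, the highest fold of an absent locus was 7.94, from 21 fragments, at FZD6, a Wnt receptor gene (chromosome 8, 103330823 to 103331201), within 2 kb of a gene boundary. The next were UAP1, a gene of UDP-N-acetylglucosamine synthesis (chromosome 1, 162577623 to 162577953), and ANKRD55, an ankyrin repeat gene (chromosome 5, 56165611 to 56166076), both with a fold of 7.91 from 17 fragments over a background of 1.28. The nearest knockdown peak was 4.08 kb away at FZD6, 1.58 kb at UAP1 and 166 kb at ANKRD55. At FZD6 that peak was in siREXO4 with a fold of 4.21, and at UAP1 it was in siRNaseH1 with a fold of 3.97.

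UACA, an ankyrin and coiled-coil gene, and COL6A6, a collagen VI chain gene, had a fold of 7.50 from 19 fragments. OPCML, which encodes a neural cell adhesion molecule, had 7.47 from 16 fragments, with no knockdown peak for 491 kb. PPP6R3, a phosphatase regulatory subunit gene, had 7.39 from 16 fragments. XPR1, a phosphate exporter gene, PPP1CB, a phosphatase catalytic subunit gene, and ACOXL, an acyl-CoA oxidase-like gene, each had 7.03 from 15 fragments. Of these 10 loci, only those at FZD6 and XPR1 were within 2 kb of a gene boundary, and the other 8 were farther inside their genes. The XPR1 locus was 114087 bp from the nearest gene start with a promoter entry, and LOC124904687 also lay within 2 kb of it.

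Away from protein-coding genes, the highest fold was 7.47, at chromosome 7, 70991799 to 70992090, which lay 140 kb from GALNT17. A locus 3.15 kb from the noncoding gene LINC00641 (chromosome 14, 21196721 to 21197099) had 7.07, and one at LOC102724354 (chromosome 21, 6069886 to 6070424) had 7.03. The widest absent locus was 887 bp, inside CFAP54, a cilia gene (chromosome 12, 96504621 to 96505507), with a fold of 5.27. The next widths were 869 bp inside the noncoding gene LINC02714, 848 bp at 4.32 kb from ISOC2, 775 bp inside CPQ, a carboxypeptidase gene, and 764 bp inside STK3.

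A few absent loci stood on a high local background. The background exceeded 5 fragments at 11 of them, and 8 had 26 or more fragments at the summit. The deepest was at the pseudogene CDC27P9 (chromosome 21, 8238903 to 8239171), with 220 fragments over a background of 112 and a fold of 1.96, and siREXO4 and siRNaseH1 peaks lay 636 bp and 663 bp from it. A pair on chromosome 1, from 161450308 and from 161442956, lay at tRNA genes with 75 and 70 fragments, and another, from 228556555, was near the 5S pseudogene RNA5SP19 with 42. A locus at SMG1P6 had 27 fragments over a background of 3.69, so it was deep without a background above 5. The rest of the 8 were within 2 kb of SNAR-A4 and SNAR-A7 and 20.7 kb from BAGE2. These 8 are repeated or near-identical sequences. How the authors treated multiply mapped reads is not given in the sources used here, so their positions are uncertain.

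Distances to knockdown peaks were broad. The median gap from an absent locus to the nearest knockdown peak was 23.9 kb, with 48.8 kb to the nearest siREXO4 peak and 34.7 kb to the nearest siRNaseH1 peak. A knockdown peak lay within 500 bp of 108 absent loci (5.29%), within 2 kb of 250 (12.2%) and within 10 kb of 679 (33.3%). For 480 (23.5%) there was none within 100 kb. The nearest peak was from siRNaseH1, the longer list, for 58.6% of absent loci. Absent loci with a knockdown peak within 2 kb had their summit near a gene boundary in 22.8% and between genes in 18.4%, whereas those with none within 100 kb did so in 7.50% and 47.9%.

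At the limit of the rule, 7 absent loci were 10 bp or less from a knockdown peak. The locus at chromosome 3, 63141212 to 63141639, ended where a siRNaseH1 peak began. The locus at chromosome 4, 116298430 to 116298739, was 5 bp from one, and the locus inside SRRT, a partner gene of the nuclear cap-binding complex (chromosome 7, 100878625 to 100879097), with a fold of 6.67, was 7 bp from one. Just outside, a locus at chromosome 2, 20166069 to 20166334, was kept through 3 bp of a siREXO4 peak. A locus at ANO1, a chloride channel gene, was kept through 8 bp of a siREXO4 peak, and a locus at SUV39H2, a histone methyltransferase gene, through 13 bp of a siRNaseH1 peak. At the other end, the farthest locus was 2984 kb from any knockdown peak (chromosome 4, from 132463278, fold 3.95, 8 fragments). The next were 2970 kb away inside LOC105374298 near the start of chromosome 3, with a fold of 6.59 from 14 fragments, and 2156 kb away on chromosome 4, from 135636445, with a fold of 5.27.

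An absent locus overlapped 1066 of 19970 protein-coding genes or their 2 kb flanks, 5.34%, and a locus kept in both overlapped 1063, 5.32%. Of the 1066 genes, 957 held 1 absent locus, 90 held 2 and 19 held 3 or more, and of the 1063 genes, 900 held 1 locus kept in both. The genes were long, with a median of 96.0 kb, against 27.9 kb for genes with a locus kept in both and 24.2 kb for all protein-coding genes. An absent locus was held by 0.672% of genes under 10 kb, 3.04% at 10 to 30 kb, 6.32% at 30 to 100 kb, 13.5% at 100 to 300 kb and 21.5% at 300 kb or more. Over the same lengths, a locus kept in both was held by 4.54%, 5.46%, 5.83%, 5.70% and 5.19%. Per Mb of gene, absent summits were most frequent at 10 to 30 kb, with 1.32, and least frequent at 300 kb or more, with 0.462. The density of loci kept in both was 6.83 per Mb in genes under 10 kb and 0.103 in genes of 300 kb or more.

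**Figure D4:**
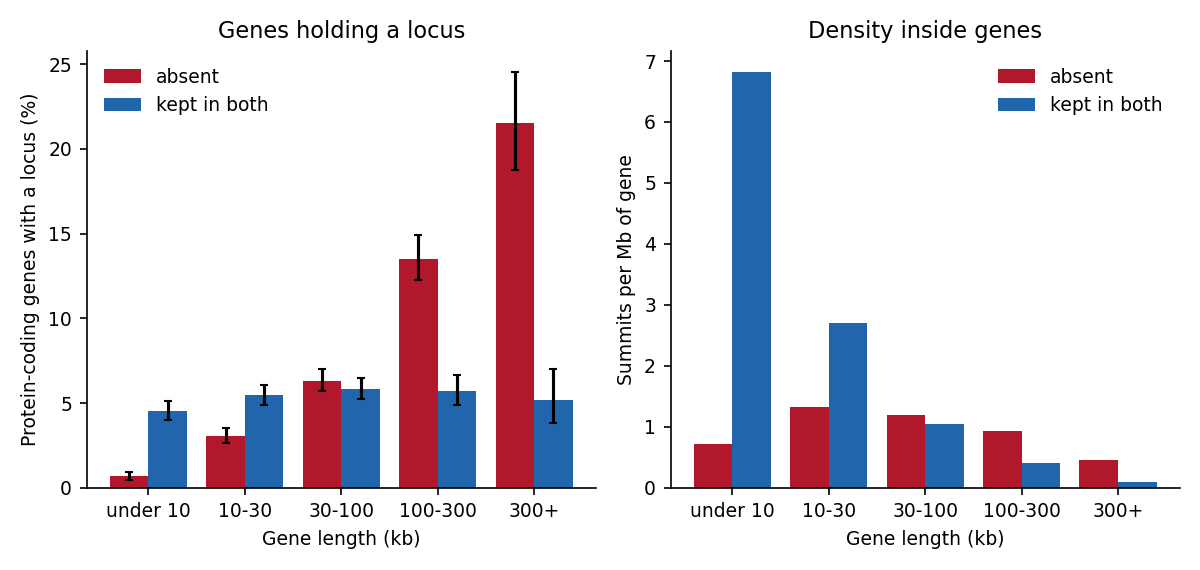
Left, percent of protein-coding genes (y) that hold an absent locus (red) or a locus kept in both knockdowns (blue), by gene length (x, kb), with 95% Wilson intervals. Right, summits per Mb of gene for the same classes; the share with an absent locus is 21.5% in the longest genes, where its density is 0.462 per Mb.

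Most genes with an absent locus held a knockdown peak at another place. Of the 1066 genes, 618 (58.0%) held a siREXO4 peak elsewhere and 717 (67.3%) a siRNaseH1 peak, against 33.7% and 39.2% of all protein-coding genes. Either was held by 793 (74.4%), against 45.3% of all protein-coding genes. Within a length class the shares were 52.6% against 28.7% under 10 kb, 74.6% against 54.3% at 30 to 100 kb and 74.1% against 56.3% at 300 kb or more. A kept siCtrl locus was held by 178 of the 1066 genes (16.7%), against 7.54% of all.

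STK3, a kinase gene of the Hippo pathway, held the most absent loci. It held 6, with folds of 5.65, 5.25, 4.88, 3.71, 5.28 and 5.92 along the gene, from 12 to 19 fragments each. The gene also held 6 siREXO4 peaks, 18 siRNaseH1 peaks and 1 kept siCtrl locus over its 599 kb. RANBP2, a nuclear pore gene with an annotated span of 1123 kb, held 5 with folds of 4.50 to 5.27, beside 9 siREXO4 and 22 siRNaseH1 peaks, and shared 3 of the 5 with CCDC138, which lies within that span. NCOR1, a nuclear corepressor gene, held 4 with folds of 4.04 to 6.0, beside 2 siREXO4 and 3 siRNaseH1 peaks. NBPF19 also held 4, but belongs to a family of near-identical copies, so its loci are uncertain. A further 15 genes tied at 3. Among them, KIAA0825 and CNBD1 held 0 peaks in either knockdown list, and their absent loci lay 863 to 916 kb and 674 to 726 kb from the nearest one.

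Absent loci formed few runs of 5 or more. Of the 2041, 1482 (72.6%) had no other absent locus within 100 kb. By the same measure within their own class, 73.1% of loci kept in 1 and 50.1% of loci kept in both were alone. The share alone depends on the size of the class, which was 913 and 1504 loci for these. The share that an even spread would give was not worked out. Runs of at least 5 took up 15 absent loci in 3 runs of 5, against 16 loci kept in 1 in 3 runs and 197 loci kept in both in 21 runs, the longest of 31. The first run, on chromosome 3 from 185530115 to 185698998, crossed LIPH, a phospholipase gene, SENP2, a SUMO protease gene, and IGF2BP2, an RNA-binding protein gene, with folds of 3.75 to 5.86. The second, on chromosome 17 from 15955783 to 16168012, crossed ADORA2B, an adenosine receptor gene, TTC19, a respiratory complex III gene, and NCOR1. The third, on chromosome 16 from 21831791 to 21926818, lay at NPIPB4 and SMG1P4, members of near-identical families, and is uncertain.

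Across chromosomes, absent loci averaged 0.674 per Mb and loci kept in both 0.496 per Mb. Absent loci were densest on chromosomes 17 and 19, with 1.68 and 1.40 per Mb, followed by chromosomes 8 and 10, with 0.951 and 0.942, and sparsest on X, with 0.0769. The same 2 chromosomes led for loci kept in both, with 1.91 and 2.05 per Mb. As a share of a chromosome's siCtrl loci, absent loci were 64.5% on chromosome 18 (52.1 to 75.3%) and 55.7% on chromosome 4 (48.1 to 63.0%), with intervals above the 45.8% of all chromosomes. Intervals under it were those of chromosome 21, with 20.8% (14.6 to 28.7%), chromosome 19, with 33.3% (27.7 to 39.4%), and chromosome 17, with 39.1% (34.2 to 44.3%). On chromosome 21, the first 10 Mb, which include the CDC27P9 locus of uncertain position, held 73 of the 125 siCtrl loci, with 6 absent and 56 kept in both. Without that window the share was 38.5% (26.5 to 52.0%), and the interval included 45.8%. Without its window of most siCtrl loci, chromosome 17 had 41.8% (36.2 to 47.7%), which also included it. In 10 Mb windows, chosen after their values were seen, the most absent loci were at 60 to 70 Mb of chromosome 17, with 27 of 47 siCtrl loci, and at 90 to 100 Mb of chromosome 8, with 26 of 35. The chromosome 8 window, which includes STK3, held 2 loci kept in both.

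**Figure D5:**
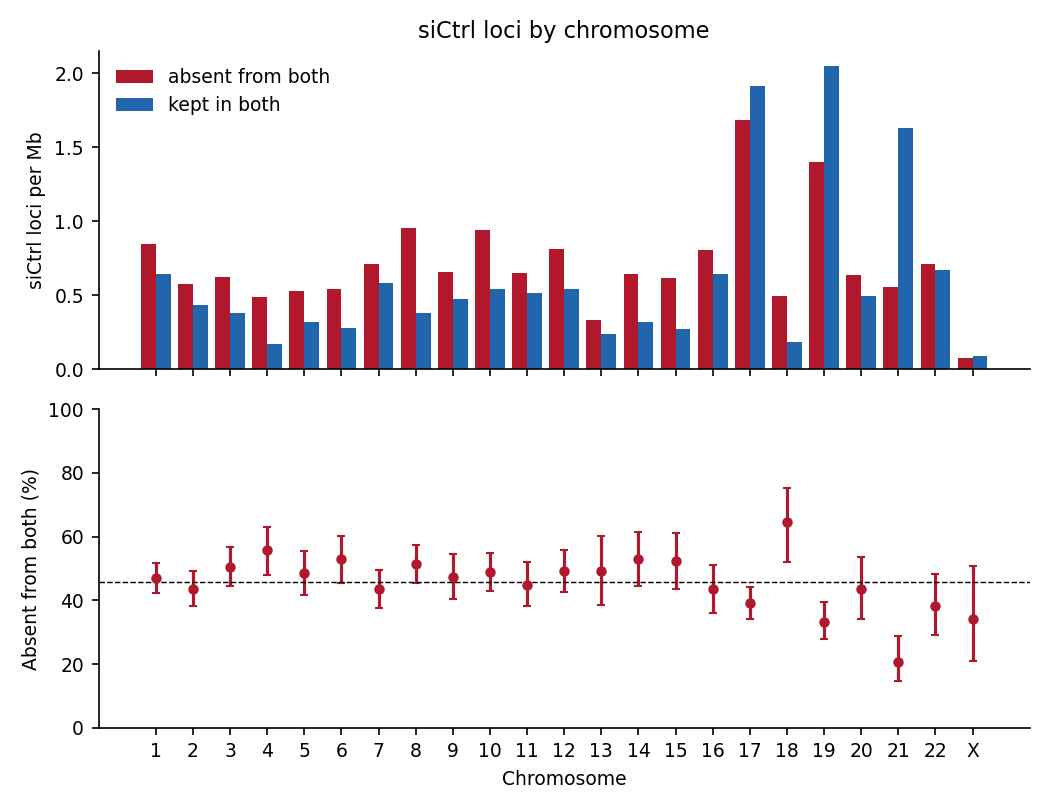
Top, siCtrl loci per Mb (y) by chromosome (x), absent from both knockdowns (red) and kept in both (blue). Bottom, percent of each chromosome's siCtrl loci that were absent, with 95% Wilson intervals; the dashed line is the 45.8% of all chromosomes, chromosomes 4 and 18 lie above it and chromosomes 17, 19 and 21 below it with their whole intervals.

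Gene groups were read as counts beside the 5.34% of all protein-coding genes that held an absent locus and the 5.32% that held a locus kept in both. Among growth and stress response genes, 1 of 22 immediate early genes held one, NR4A1, an orphan nuclear receptor gene, with a fold of 5.38, whereas 15 of the 22 held a locus kept in both. The median length of these genes was 4.71 kb. Of all genes under 10 kb, 0.672% held an absent locus and 4.54% a locus kept in both. Among p53 targets it was 1 of 20, SESN1, a sestrin gene of the stress response, with 5.27, and 4 held a locus kept in both. Of 15 heat shock and chaperone genes 0 held an absent locus, which with the Wilson interval allows up to 20.4%, and 4 held a locus kept in both.

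Of genes for the translation machinery, 2 of 86 cytosolic ribosomal protein genes held an absent locus, against 36 with a locus kept in both. Among them was RPL3L, a muscle paralog of RPL3, with a fold of 4.77. Ribosome biogenesis genes gave 2 of 38, RRP12 with 4.56 and NHP2 with 3.71, against 7 with a locus kept in both. Replication-dependent histone genes gave 0 of 69, which allows up to 5.27%, against 14 with a locus kept in both. These lists hold short genes, with medians of 0.494 kb for histone and 5.05 kb for ribosomal protein genes. Of all genes under 10 kb, 0.672% held an absent locus and 4.54% a locus kept in both.

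Of genes that act on R-loops, 2 of 37 held an absent locus, among them BLM, a RecQ helicase gene, with a fold of 6.01, against 9 with a locus kept in both. BLM also held 1 siREXO4 and 1 siRNaseH1 peak elsewhere. Replication factor genes gave 5 of 37 (13.5%, 5.91 to 28.0%), among them the origin recognition genes ORC1, with 5.65, and ORC3, with 4.83, and the single-strand binding gene RPA2, with 4.31, against 4 with a locus kept in both. The interval lies just above the 5.34% of all genes. The median length of the list was 36.7 kb, and 6.32% of all genes of 30 to 100 kb held an absent locus, which the interval includes.

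Common fragile site genes had 4 of 23 with an absent locus (17.4%, 6.98 to 37.1%) and 1 with a locus kept in both. The highest folds were 6.59 in CSMD1, with the nearest knockdown peak 671 kb away, and 5.71 in DAB1, a reelin adaptor gene, with the nearest 374 kb away. These genes are very long, with a median of 1380 kb, and 21.5% of all genes of 300 kb or more held an absent locus, so the count was near that of long genes.

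In the remaining gene families and tissue gene lists, the share with an absent locus was not above that of all protein-coding genes. Solute carrier genes gave 17 of 383 (4.44%), against 19 with a locus kept in both. Among the 17 were SLC4A4, a bicarbonate cotransporter gene, with 5.63, and SLC71A1 and SLC23A1, a vitamin C transporter gene, each with 5.25. The SLC71A1 locus was only 0.015 kb from a knockdown peak. The SLC23A1 locus lay in the 2 kb flank of that gene and inside PAIP2. Zinc finger genes of chromosome 19 gave 6 of 250, led by ZNF814 with 5.44, ZNF154 with 5.25 and ZNF607 with 4.68, against 7 with a locus kept in both. Olfactory receptor genes gave 2 of 392, OR4D9 with 5.27 and OR7A10 with 5.25, against 1 with a locus kept in both, at a median length of 2.94 kb. Osteosarcoma and mesenchymal genes gave 0 of 23, genes of other tissues 0 of 30 and protocadherin genes 0 of 53, against 0, 2 and 0 with a locus kept in both. With the Wilson intervals these counts of 0 allow up to 14.3%, 11.4% and 6.76%, so none is shown to lie below the 5.34% of all genes.

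Small RNA genes lay beside a smaller share of absent loci than of kept loci, and long noncoding RNA genes did not. The summit lay inside a protein-coding gene for 52.9% of absent loci, 57.0% of loci kept in 1 and 62.9% of loci kept in both. It lay only in a long noncoding RNA gene for 8.62% of absent loci (7.48 to 9.92%), 7.56% of loci kept in 1 and 6.32% of loci kept in both (5.19 to 7.66%). A small RNA gene, such as a snoRNA, snRNA, tRNA or miRNA gene, was within 2 kb of 0.588% of absent loci (0.337 to 1.02%), 2.96% of loci kept in 1 and 6.32% of loci kept in both (5.19 to 7.66%). Of the 1562 miRNA hairpins of the RefSeq table, 0 were overlapped by an absent locus and 11 by a kept siCtrl locus. The share of the chromosomes taken up by these gene types was not worked out, and coverage was not matched. These values therefore compare the classes only, and no number of hairpins expected from position was available.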

How the data were processed

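DNA-RNA hybrids of U2OS cells were mapped by DRIP-seq in 13 samples, grouped by sample title. Per the submitters' processing notes, the build was hg38 and the tools were MACS2 2.1.0.20150731, deepTools 3.5.1, SAMtools 1.17, HISAT2 2.2.1, Trim Galore 0.6.10 and Cufflinks. Their roles, options and the control library are not stated in the sources at hand. The authors deposited 1 narrowPeak list per transfection, called on merged IP libraries, with a fold enrichment (a ratio at the summit), −log10 p and −log10 q values and a score for each peak. Signals of single replicates, inputs and IgG were not used here, and neither was the score.

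A siCtrl locus was absent when no knockdown peak overlapped it by at least 1 bp. Fragments at the summit were recovered from the deposited fold and −log10 p, since a whole number of fragments and a background value satisfy both within 0.001. All 4439 siCtrl peaks with −log10 p below 300 gave one, and peaks above it were counted with the deepest. Genes came from the RefSeq table and promoters from the RefSeq promoter table, both of GRCh38.p14. Shares carry 95% Wilson intervals. Named loci were the 10 of highest fold at protein-coding genes and the 3 elsewhere, the 5 widest, those nearest to and farthest from the rule's limit, the genes with most absent loci, up to 3 genes per list and the absent loci at promoters. No run reached the 10 loci that the rule asked for, so runs of 5 were named, after their values were seen. Some genes that the rule names are not reported here. Members and lists were chosen with earlier results of these data known. Matplotlib 3.10.9, SciPy 1.17.1, pandas 2.3.3 and NumPy 2.4.6 were run under Python 3.11.15, and the code was tested on simulated data. Alternatives comprised stricter peaks, other overlaps, gene distances, joining distances and call limits.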

Additional observations from a re-analysis of the deposited data

How the results depend on the processing

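The number of absent loci, 2041, ranged from 1362 to 3031 under other overlaps, chromosomes and q-values and at equal list length, and was 648 among siCtrl peaks with a fold of at least 5. Near a boundary, inside and between genes lay 6.52%, 59.9% and 33.6% of absent loci at a boundary distance of 1 kb, 30.3%, 45.1% and 24.6% at 5 kb, and 5.59%, 50.0% and 44.4% with protein-coding genes only. The share between genes was 34.1% at a fold of at least 5 and 33.6% for loci alone within 100 kb. Loci with a neighbour numbered 559 at 100 kb, 174 at 20 kb, 1289 at 500 kb and 54 at a fold of at least 5. With the 5th percentile of knockdown coverage as the limit, 94.5% reached it in siREXO4 and 83.3% in siRNaseH1, and with the median 31.7% and 7.64%. Genes with an absent locus numbered 347 at a fold of at least 5. With a knockdown peak within 2 kb counted as shared, an alternative chosen after seeing the data, 0% of 1668 absent loci overlapped a promoter window. Without its first 10 Mb, also chosen after seeing the data, the absent share of chromosome 21 was 38.5%, against 20.8% with them. In each case the cause was not tested. The other 30 values moved by less than their interval, spread or 1.5 times. No paired analysis was possible because the lists were called on merged libraries and carry no replicate number, and for the same reason no replicate could be left out. Read depth is unknown, and shallow loci limit every count.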
